A study of Mus musculus with 36 samples.

Results

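The genes described here encode 44 subunits of chromatin complexes, 27 of the BAF (SWI/SNF) remodelling complexes and 17 of the Polycomb complexes, among 49671 gene identifiers counted in each library. They were chosen by name as known subunits, with no measured value in the rule, and all 44 were found in the count tables. RNA from 36 libraries of mouse embryonic pluripotent stem cells was sequenced, and in every library, also those labelled WT, the cells carried a transgene through which doxycycline (dox) forces expression of Mesp1, a basic helix-loop-helix transcription factor of early cardiac mesoderm. Cells differentiated in hanging drops in medium with serum, and times were counted in hours from a point that the labels call d2-5. WT cells given dox were collected at 12 h (2 libraries, batch 1) and at 24 h (2 libraries in batch 1 and 4 in batch 2), WT cells without dox at 12 h (2 libraries, batch 1) and 24 h (2 in each batch), and WT cells without dox at 0 h (2 in each batch). In batch 3, 2 libraries labelled Zic2_KO and 2 labelled WT were all given dox for 24 h. Undifferentiated WT cells in 2i medium, a serum-free medium whose inhibitors keep pluripotency naive, were kept with dox (2 libraries) or without it (2 libraries) for 24 h. On day 4, WT cells were sorted as Flk1+/Pdgfra+ (double positive, DP, 5 libraries) or Flk1-/Pdgfra- (double negative, DN, 3 libraries), beside unsorted embryoid bodies (bulk, 2 libraries). The labels of the sorted cells name no dox, and the bulk titles carry a tag, ND, that the labels do not explain. Nor do the labels say whether the line is a single clone or whether replicates were separate cultures. A p-value therefore reflects library-to-library spread, which may be technical.

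BAF complexes use the ATPase SMARCA4 (BRG1) or SMARCA2 (BRM) to move nucleosomes, and most of their other positions are filled by alternative paralogs, so that a complex can change its make-up when a cell exchanges one paralog for another. Polycomb repressive complex 2 (PRC2) methylates histone H3 through EZH2 or EZH1, and Polycomb repressive complex 1 (PRC1) binds that mark through a CBX subunit and ubiquitylates histone H2A through RING1 or RNF2. In mouse embryonic stem cells SMARCC1 and SMARCD1 are known as the usual BAF scaffold subunits and CBX7 as the main CBX subunit, and SMARCD3 (BAF60C) is known from mouse embryos as a subunit of heart and muscle.

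The 36 gene totals lay between 12126604 and 51940589 counts. Levels are given as CPM, in which a count is scaled by its library's gene total, and 1 count equals 0.0193 to 0.0825 CPM. Mesp1 stood at 42.9 to 544 CPM in the 6 dox libraries at 24 h, against 0.808 to 45.3 CPM in the 4 without dox. Its levels in the no-dox libraries differed by batch, at 41.5 and 45.3 CPM in batch 1 and 0.808 and 1.505 CPM in batch 2. Zic2 had 73.0 and 56.4 CPM in the libraries labelled Zic2_KO, against 108 and 74.7 CPM in their WT libraries, a difference that did not pass the test (edgeR, log2 fold change -0.50, adjusted p = 0.9996); which part of the gene was deleted is not given in the sources used here. Kdr, which encodes Flk1, had 735 to 1260 CPM in DP libraries and 2.84 to 6.57 CPM in DN libraries. Of 8 mesoderm markers, 8 rose with dox at 24 h, and their summed level was 729 to 1469 CPM with dox and 20.6 to 240 CPM without. Among 7 neural and neuronal genes, 4 of 6 tested also rose (among them Tubb3, Pax6 and Stmn2) and Sox1 fell, with sums of 194 to 301 CPM with dox and 80.5 to 111 CPM without, while Neurog2 had no count in 2 of the 6 dox libraries and Sox1 none in 1. All 5 primed epiblast markers fell (sums of 331 to 887 CPM with dox and 1812 to 3031 CPM without), as did all 5 primitive streak markers (97.4 to 424 CPM and 884 to 1492 CPM without) and 3 of 4 endoderm markers (12.3 to 45.1 CPM and 169.8 to 373 CPM without). Of 8 naive pluripotency genes, 1 rose and 4 fell (63.2 to 138 CPM with dox and 264 to 428 CPM without). The part of these cell-type differences in the subunit changes was not tested, and in such bulk libraries fewer cells of a type and less RNA per cell cannot be told apart.

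Compared per kilobase of exon, the most abundant of the 44 transcripts were the ATPase Smarca4 (median 75.6 CPM per kb over all 36 libraries), Smarcd1 (67.7 CPM per kb) and Smarcc1 (66.3 CPM per kb). Next came the actin-like subunit Actl6a with 47.3 CPM per kb and Arid1a with 43.9 CPM per kb. At the low end stood the second ATPase Smarca2 (0.840 CPM per kb), the PRC2 accessory gene Phf19 (0.626), Cbx8 (0.484), Bcl11b (0.438) and Dpf3 (0.399). Actl6b, the actin-like subunit that replaces Actl6a in neurons, had at most 0.159 CPM in any library and no count in 18 of 36, and it was too low to be tested in any comparison. Of the 43 genes with counts in every group, 26 had group means within 3-fold of each other across the 15 groups, 11 spanned 3-fold to 10-fold, and 6 spanned more than 10-fold. Those 6 were Smarcd3, Dpf3, Bcl11a, Bcl11b, Cbx7 and Cbx8.

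**Figure D1:**
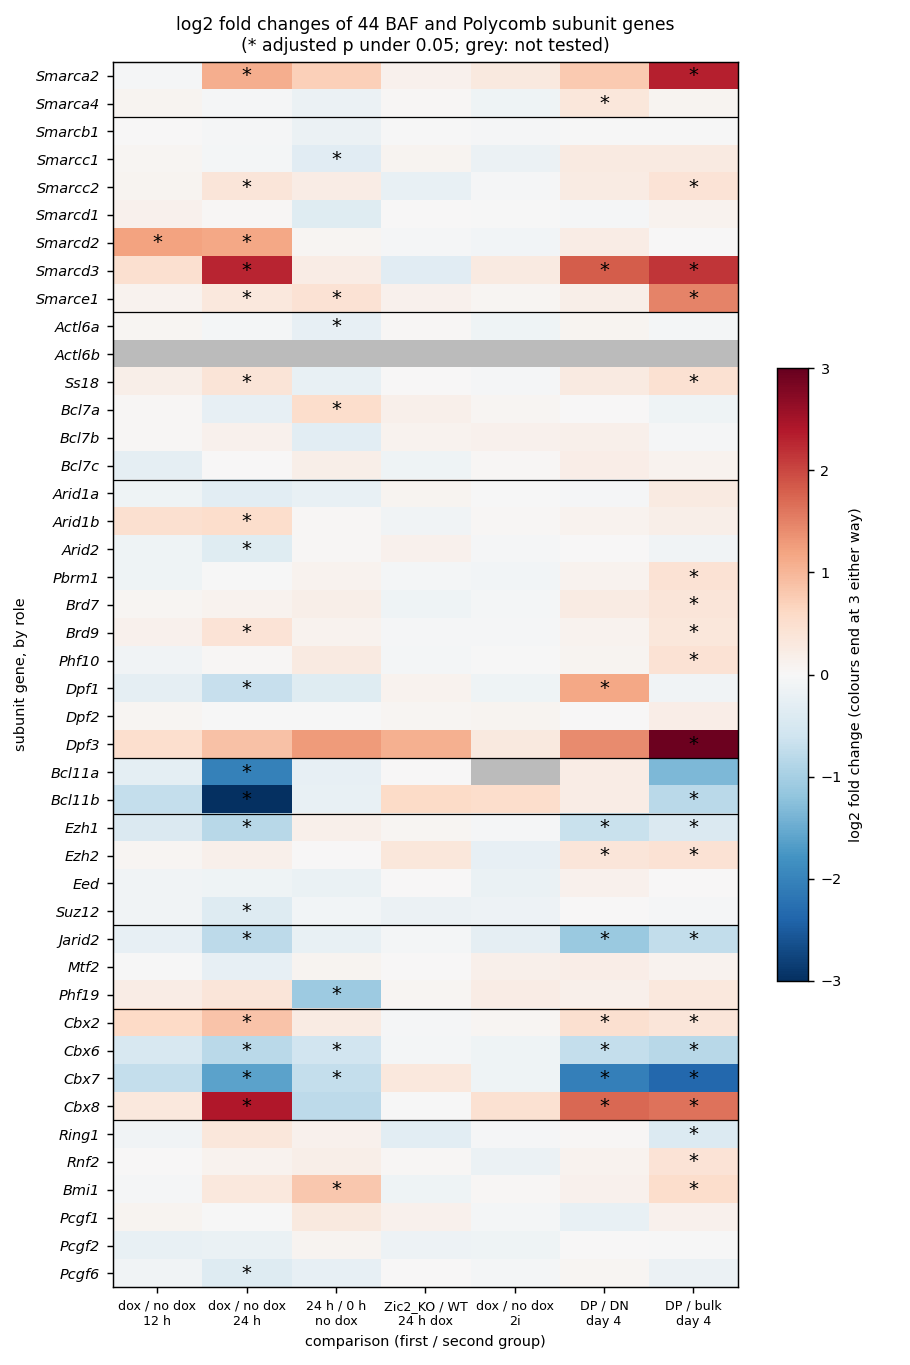
Fitted log2 fold changes of the 44 subunit genes (rows, ordered by role) in 7 comparisons (columns, first group over second), with asterisks at adjusted p under 0.05. Dox at 24 h has 20 asterisks, the Zic2_KO and 2i comparisons have none, and Cbx2, Cbx8, Cbx6 and Cbx7 have asterisks in all of the dox 24 h, DP against DN and DP against bulk columns.

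Forced Mesp1 expression for 24 h changed 20 of the 43 subunit genes tested, 10 upward and 10 downward, in a comparison of 6 dox libraries with 4 no-dox libraries that carried batch as a term. A gene was called where edgeR's 2-sided quasi-likelihood test gave a Benjamini-Hochberg adjusted p under 0.05 over all genes tested. Among all 18592 genes tested, 30% were called, 15.4% higher and 14.6% lower, so that the members' share of 46.5% stood above that of all genes. The members were not matched to all genes in transcript level, and the shares are given side by side only. The median log2 fold change of the members was -0.0048, beside 0.019 for all genes. Higher with dox were Cbx8, Smarcd3, Smarcd2, Smarca2, Cbx2, Arid1b, Brd9, Ss18, Smarcc2 and Smarce1. Lower were Bcl11b, Bcl11a, Cbx7, Ezh1, Cbx6, Jarid2, Dpf1, Suz12, Pcgf6 and Arid2. BAF genes made up 8 of those that rose and 4 of those that fell, out of 26 tested, while Polycomb genes made up 2 and 6, out of 17 tested. With batch 1 fitted alone, 12 members were called, 5 higher and 7 lower, where that fit called 20.8% of all genes. It lost the calls of Arid1b, Arid2, Brd9, Cbx2, Pcgf6, Smarcc2, Smarce1 and Suz12 (edgeR, adjusted p = 0.057 to 0.467). Batch 2 fitted alone lost those of Dpf1, Smarce1 and Ss18 (edgeR, adjusted p = 0.0883 to 0.226). The dox effect in batch 2 minus that in batch 1 was called for 0 of 43 members by edgeR and 1 by DESeq2, with 5 at an unadjusted p under 0.05 and 0.629% of all genes called, 0.554% higher and 0.0753% lower.

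Of the ATPases, Smarca2 rose and Smarca4 was not called. Smarca2 had 32.6 and 30.6 CPM with dox in batch 1, against 17.6 and 18.4 CPM without, and 27.3, 12.9, 13.4 and 12.4 CPM with dox in batch 2, against 6.29 and 6.14 CPM without. Every dox library lay above every no-dox library of its batch, and the log2 fold change was 1.10 ± 0.24 (SE, adjusted p = 0.00185). Without the batch term it was 0.86 and did not pass (adjusted p = 0.145); batch 1 was higher than batch 2 in both conditions. Smarca4 had 327 to 576 CPM with dox and 425 to 535 CPM without, so that per kilobase the ratio of Smarca2 to Smarca4 was 0.0226 with dox and 0.01001 without.

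The SMARCD position, filled by one of 3 paralogs known as BAF60A, BAF60B and BAF60C, held both the earliest and the largest rise among BAF genes under dox. Smarcd1 (BAF60A) was not called in any comparison, Smarcd2 (BAF60B) rose by 12 h of dox, and Smarcd3 (BAF60C) rose by 24 h. At 24 h Smarcd1 had 179, 288, 267, 309, 283 and 320 CPM with dox, against 192, 279, 297 and 282 CPM without, which overlapped. Smarcd2 had 166 and 193 CPM with dox at 12 h, against 76.6 and 80.8 CPM without, and it was the single member called at 12 h (log2 fold change 1.22 ± 0.14, adjusted p = 3.36e-05). Among all genes 5.66% were called at 12 h, 3.29% higher and 2.37% lower. At 24 h it had 165, 179, 194, 178, 186 and 215 CPM with dox, against 75.4, 84.0, 87.4 and 83.6 CPM without, a log2 fold change of 1.17 ± 0.09 (adjusted p = 6.45e-08). All 6 dox libraries were above all 4 no-dox libraries, and the 0 h libraries lay at 70.3 to 84.5 CPM. Batch 3, in which every library had dox, gave 153 to 185 CPM.

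Smarcd3 had 56.7 and 42.8 CPM with dox at 24 h in batch 1, against 15.1 and 13.1 CPM without. In batch 2 it had 10.7, 5.50, 4.18 and 5.49 CPM with dox, against 1.15 and 0.690 CPM without. Batch 1 was far higher than batch 2 in both conditions, and in each of them every dox library was above both no-dox libraries, and the joint log2 fold change was 2.27 ± 0.27 (adjusted p = 5.29e-06). Fitted alone, batch 1 gave 1.81 ± 0.16 and batch 2 gave 2.81 ± 0.49, and without the batch term the joint value was 1.48 with an adjusted p of 0.435. Of the exon bases of Smarcd3, 48.2% also belong to genes on the opposite strand, chiefly Chpf2, and the use of strand in counting is not given in the sources used here. Chpf2 was named after its values were seen: it had 51.9 and 43.3 CPM with dox in batch 1, against 23.9 and 23.2 CPM without, and 9.46 to 12.7 CPM with dox in batch 2, against 9.17 and 9.59 CPM without. In batch 2, then, Smarcd3 rose while the overlapping gene gave a log2 fold change of 0.21 (adjusted p = 0.511). Read tallies also differed by batch. Reads set aside for low alignment quality numbered 0 in every batch 2 library, while in batch 1 they equalled those without a unique alignment. Ambiguous reads came to 4.83% to 5.64% of the gene total in batch 2 and 4.34% to 4.47% in batch 1. The part of such counting differences in the batch gap of Smarcd3 and in the batch 2 levels of Chpf2 was not tested. Per kilobase, Smarcd3 reached 0.0528 of the level of Smarcd1 with dox, against 0.01097 without, and Smarcd2 reached 0.791 of it with dox, against 0.358 without.

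Promoters of the 3 SMARCD paralogs are shown because the genes were called at different times or not at all. The sequences are the 250 bases before the RefSeq start (GRCm38.p6), read 5′ to 3′ on the gene's strand, with the E-box CANNTG, the general recognition motif of basic helix-loop-helix factors such as MESP1, in capitals; the motif reads the same on both strands.
Smarcd1: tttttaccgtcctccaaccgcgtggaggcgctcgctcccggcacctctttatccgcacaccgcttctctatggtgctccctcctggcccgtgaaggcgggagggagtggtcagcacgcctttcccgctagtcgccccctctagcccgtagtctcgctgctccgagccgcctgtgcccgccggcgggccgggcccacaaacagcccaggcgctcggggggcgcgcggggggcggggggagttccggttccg
Smarcd2: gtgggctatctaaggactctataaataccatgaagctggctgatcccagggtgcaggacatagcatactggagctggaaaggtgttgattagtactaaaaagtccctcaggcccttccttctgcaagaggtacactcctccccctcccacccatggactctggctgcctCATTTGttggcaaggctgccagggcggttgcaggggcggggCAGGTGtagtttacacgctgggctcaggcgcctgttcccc
Smarcd3: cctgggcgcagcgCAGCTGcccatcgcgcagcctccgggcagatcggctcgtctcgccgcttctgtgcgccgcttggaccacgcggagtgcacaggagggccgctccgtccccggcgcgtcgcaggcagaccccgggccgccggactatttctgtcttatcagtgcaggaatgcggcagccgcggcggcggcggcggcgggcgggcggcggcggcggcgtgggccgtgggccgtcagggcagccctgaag
They lie at chr15:99702037-99702286 (plus strand), chr11:106267633-106267882 (minus strand) and chr5:24602003-24602252 (minus strand). The GENCODE gene models of Smarcd2 and Smarcd3 extend further upstream, to chr11:106272972 and chr5:24624411. Starts there were not looked at. The Smarcd2 window held 2 such motifs (CATTTG and CAGGTG), the Smarcd3 window 1 (CAGCTG) and the Smarcd1 window 0. Of all 32851 RefSeq promoter windows of that length, 66.2% held at least 1, and of the 38 members with an entry 52.6% did (20 genes), and the motif says nothing about binding.

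**Figure D2:**
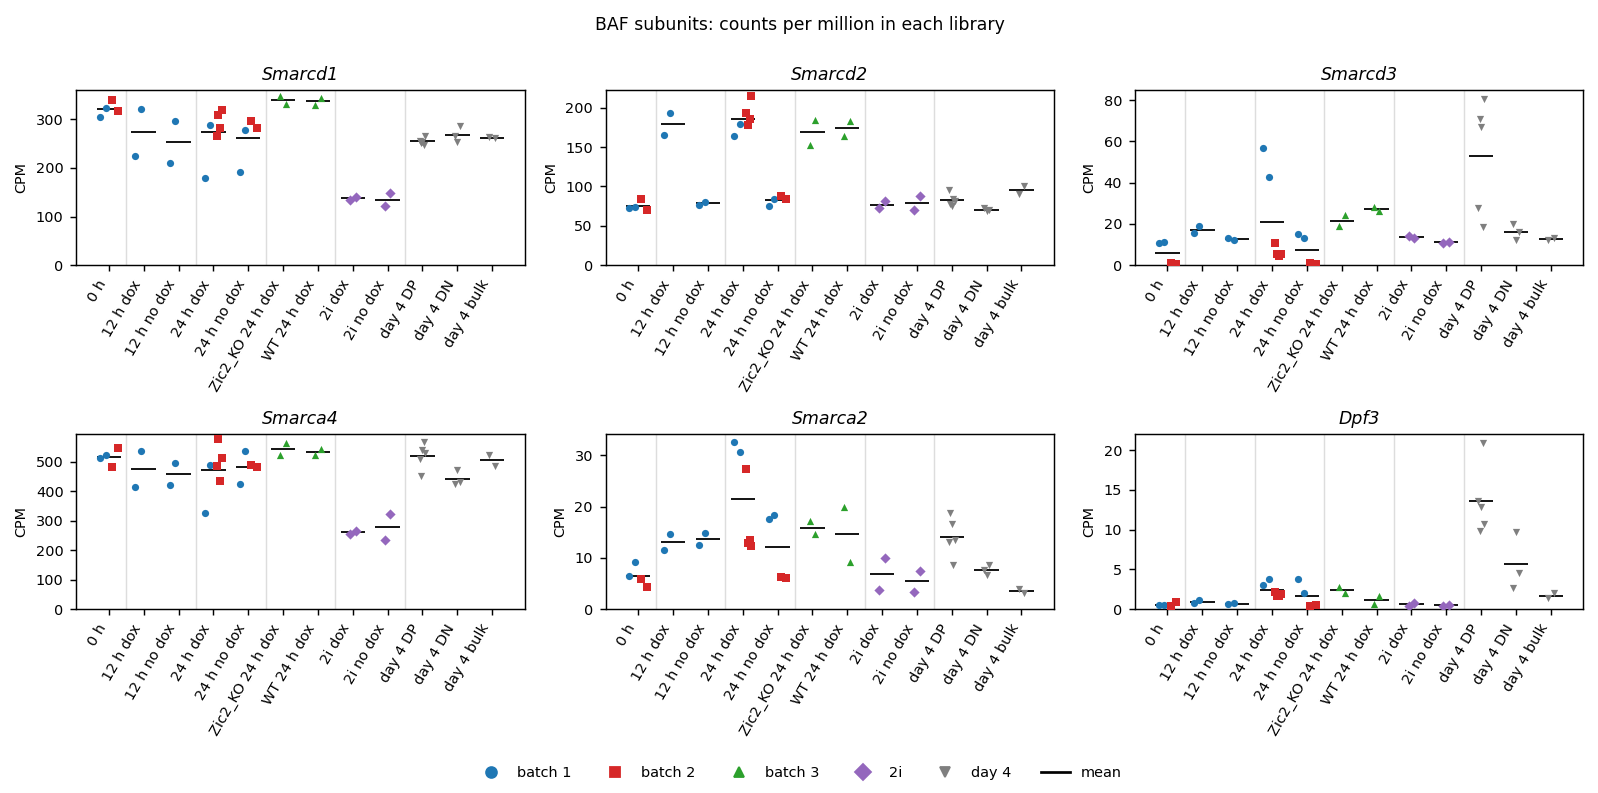
CPM of 6 BAF subunit genes in each of the 36 libraries by group (points, coloured and shaped by batch or experiment; bars, means). Smarcd2 stands at 153 to 215 CPM in every dox group of differentiating cells and lower elsewhere, Smarcd3 and Dpf3 are highest in day 4 DP cells, and Smarcd1 and Smarca4 are lowest in 2i.

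Elsewhere in the BAF core the changes at 24 h were small. Smarcc2, the scaffold partner and paralog of Smarcc1, averaged 121 ± 15.0 CPM with dox (SD, n = 6) and 95.7 ± 13.4 CPM without (n = 4), a log2 fold change of 0.37 ± 0.09 (adjusted p = 0.00527), while Smarcc1 averaged 539 ± 93.4 CPM and 543 ± 59.2 CPM and was not called. Smarce1, which encodes the HMG-box subunit BAF57, averaged 279.8 ± 34.2 CPM with dox and 219.6 ± 11.7 CPM without, but its call (log2 fold change 0.31, adjusted p = 0.0283) was lost without either batch 2 no-dox library, without batch 1 no-dox library 1 or without batch 1 dox library 2 (adjusted p = 0.0506 to 0.146). Ss18, whose product links to BAF in most cell types, averaged 263 ± 14.7 CPM with dox and 201 ± 34.95 CPM without (log2 fold change 0.39, adjusted p = 0.00244). Smarcb1, Actl6a and the 3 Bcl7 genes were not called, with mean levels at 24 h of dox from 20.97 CPM (Bcl7b) to 175 CPM (Actl6a).

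Of the 10 subunits that define BAF classes, 2 rose and 2 fell. Arid1a and Arid1b are alternative subunits of canonical BAF, and Arid1b averaged 121 ± 18.8 CPM with dox and 86.6 ± 11.5 CPM without (log2 fold change 0.53, adjusted p = 0.0134). That call was lost without batch 1 no-dox library 1 (adjusted p = 0.0636) or batch 1 dox library 2 (adjusted p = 0.0658). Arid1a averaged 473 ± 96.2 CPM with dox and 584 ± 94.6 CPM without and was not called, and the per-kilobase ratio of Arid1b to Arid1a was 0.245 with dox and 0.136 without. Arid2, of the PBAF class, fell to 259 ± 26.9 CPM with dox, against 341 ± 35.2 CPM without (log2 fold change -0.37, adjusted p = 0.0198), a call lost without either batch 2 no-dox library (adjusted p = 0.109 and 0.0727). The other PBAF genes Pbrm1, Brd7 and Phf10 were not called. Brd9, the bromodomain subunit of the non-canonical class, rose to 55.5 ± 6.92 CPM with dox, against 42.2 ± 4.68 CPM without (log2 fold change 0.40, adjusted p = 0.00648).

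The DPF position, another set of paralogs with histone-reading PHD fingers, lost Dpf1 transcripts with dox. Dpf1 had 5.82, 5.76, 6.45, 7.93, 7.66 and 8.98 CPM with dox, against 12.5, 10.47, 11.02 and 10.6 CPM without (log2 fold change -0.70 ± 0.14, adjusted p = 0.000917). No dox library reached a no-dox library. Dpf2, the abundant and widely expressed paralog, averaged 136 ± 7.84 CPM and 136 ± 9.62 CPM without dox. Dpf3, known from zebrafish for a part in heart and muscle, had 1.60 to 3.81 CPM with dox and 0.346 to 3.75 CPM without and was not called at 24 h.

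Bcl11a and Bcl11b, zinc finger transcription factors that associate with BAF and are best known from neurons and lymphocytes, had the largest falls among the members tested. Bcl11b had 1.17, 1.38, 0.954, 1.13, 0.975 and 1.26 CPM with dox at 24 h, against 15.3, 19.7, 9.92 and 11.04 CPM without, with no overlap between the groups (log2 fold change -3.49 ± 0.23, adjusted p = 9.01e-09). Bcl11a had 5.05, 5.76, 3.96, 11.2, 10.8 and 12.1 CPM with dox, against 43.9, 37.8, 24.6 and 28.5 CPM without (log2 fold change -2.03 ± 0.28, adjusted p = 2.81e-05). At 12 h Bcl11b had 13.3 and 11.7 CPM with dox, against 18.7 and 23.1 CPM without, with both dox libraries below both others, and the test gave a log2 fold change of -0.72 (adjusted p = 0.236). Bcl11a had 42.6 and 33.2 CPM with dox at 12 h, against 52.7 and 42.1 CPM without, which overlapped, and was not called either. The difference between the 24 h and the 12 h dox effects was called for Bcl11b alone among the members (-2.77 ± 0.38, adjusted p = 0.00793, with 0.522% of all genes called, 0.194% higher and 0.328% lower). It did not pass without 12 h no-dox library 1 (adjusted p = 0.084) or 2 (adjusted p = 0.0646), and for Bcl11a no such difference was called (adjusted p = 0.134).

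**Figure D3:**
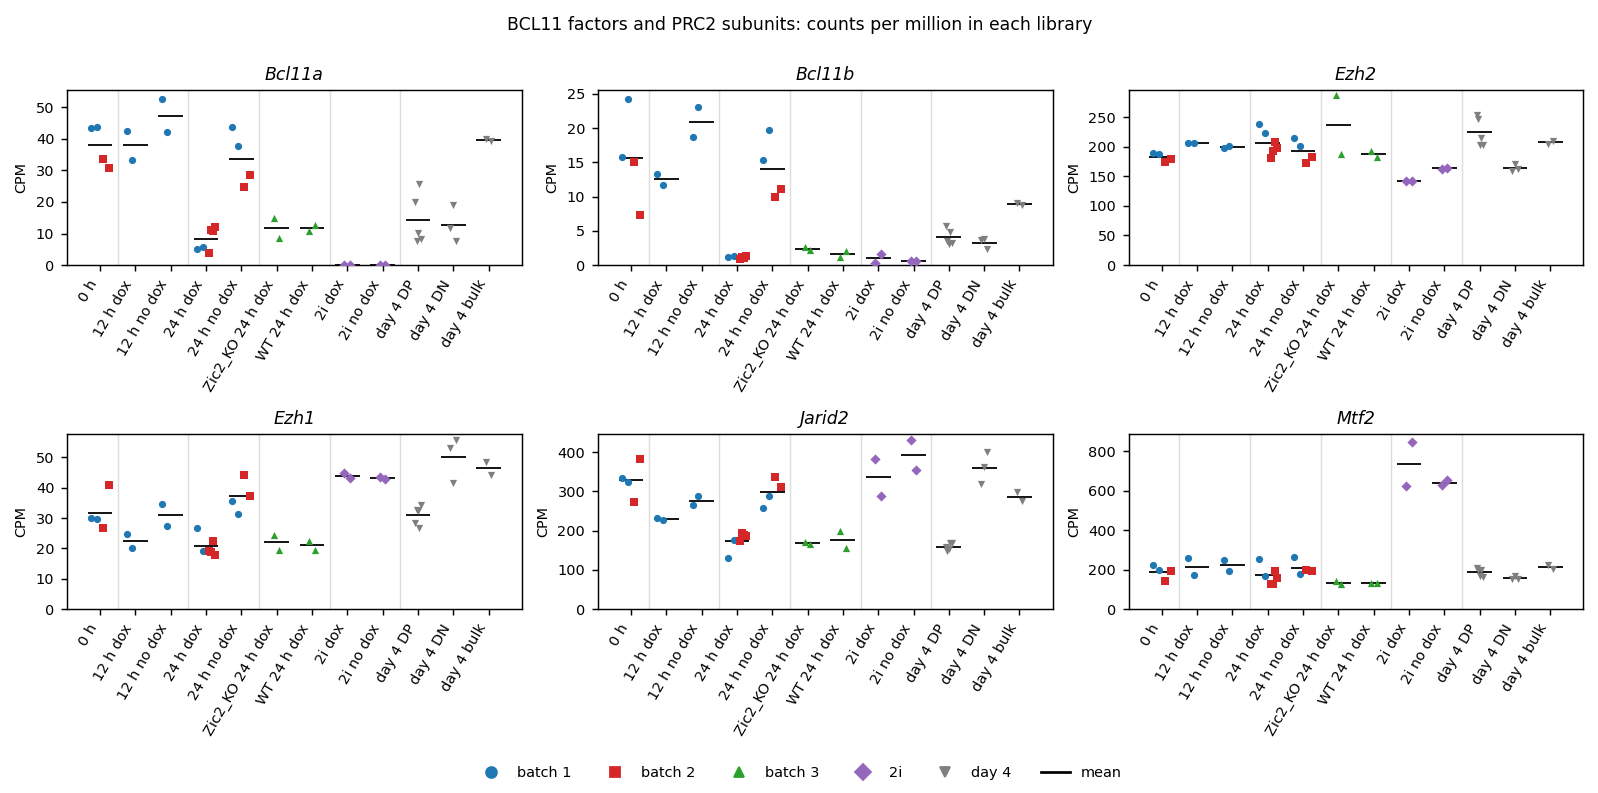
CPM of the BCL11 factors and of 4 PRC2 subunit genes in each of the 36 libraries by group (points, coloured and shaped by batch or experiment; bars, means). Bcl11a is near 0 in 2i and Bcl11b is below 2 CPM there, both fall with dox at 24 h, Jarid2 is low with dox at 24 h and in DP cells, and Mtf2 is highest in 2i.

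Within PRC2, the less abundant methyltransferase fell and the abundant one did not. Ezh1 had 26.8, 19.1, 19.1, 18.8, 22.6 and 17.7 CPM with dox at 24 h, against 35.5, 31.5, 44.3 and 37.2 CPM without (log2 fold change -0.83 ± 0.13, adjusted p = 0.000129). Ezh2 had 238, 222, 182, 192, 208 and 198 CPM, against 215, 201, 173 and 182 CPM, which overlapped, and the per-kilobase ratio of Ezh1 to Ezh2 was 0.0890 with dox and 0.172 without. Suz12, a structural subunit that every PRC2 needs, fell to 138 ± 16.4 CPM with dox, against 183 ± 19.4 CPM without (log2 fold change -0.39, adjusted p = 0.00579), and Eed, the subunit that binds the methyl mark, was not called. Of the accessory subunits, Jarid2, which helps PRC2 to its targets in stem cells, was lower in every dox library: it had 131, 176, 173, 195, 189 and 186 CPM with dox, against 257, 287, 338 and 311 CPM without (log2 fold change -0.78 ± 0.11, adjusted p = 4.25e-05). Mtf2 and Phf19, Polycomb-like paralogs, were not called.

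All 4 CBX genes on the list changed, 2 in each direction. Cbx2 had 153, 201, 205, 177, 156 and 177 CPM with dox at 24 h, against 104, 120, 93.0 and 89.6 CPM without (log2 fold change 0.85 ± 0.14, adjusted p = 0.00015). Cbx8 had 5.57, 4.22, 7.19, 1.70, 2.23 and 3.20 CPM with dox, against 1.43, 0.714, 0.865 and 0.188 CPM without (log2 fold change 2.41 ± 0.42, adjusted p = 0.000278). For both genes every dox library exceeded every no-dox library, and Cbx8 was rare in both.

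The other pair went down. Cbx7 had 41.8, 33.3, 26.8, 59.0, 51.4 and 57.1 CPM with dox at 24 h, against 102, 88.8, 182 and 161 CPM without (log2 fold change -1.60 ± 0.18, adjusted p = 3.46e-06). Cbx6 had 54.4, 59.9, 41.3, 40.6, 44.6 and 53.9 CPM with dox, against 80.1, 86.8, 93.0 and 92.5 CPM without (log2 fold change -0.81 ± 0.12, adjusted p = 4.37e-05). No dox library of either gene reached the no-dox range. Per kilobase the mean ratio of Cbx2 to Cbx7 was 6.46 with dox and 1.204 without. In batch 2 the ratio was 4.57 to 11.7 with dox, against 0.778 and 0.848 without, and in batch 1 it was 5.56 and 9.19 with dox, against 1.55 and 2.05 without. The ratio of Cbx8 to Cbx7 was 0.165 with dox and 0.00935 without. These are the pairs with the largest shift of any of the 22 paralog pairs at 24 h, by 2.42 and 4.14 on the log2 scale, with mean SDs within groups of 0.39 and 0.82.

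The CBX genes that moved together lie near each other in the genome. On GRCm38, Cbx2 occupies chr11:119022962-119031270 and Cbx8 chr11:119036305-119040969 on chromosome 11, and Cbx7 occupies chr15:79915807-79971119 and Cbx6 chr15:79823896-79834688 on chromosome 15. Promoter windows of 3 CBX genes are shown because they moved in opposite directions; Cbx2 had no entry.
Cbx8: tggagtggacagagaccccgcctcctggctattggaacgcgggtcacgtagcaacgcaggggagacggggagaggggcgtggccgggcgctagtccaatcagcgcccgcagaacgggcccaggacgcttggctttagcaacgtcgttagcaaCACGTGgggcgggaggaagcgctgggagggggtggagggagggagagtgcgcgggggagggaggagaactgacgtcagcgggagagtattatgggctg
Cbx6: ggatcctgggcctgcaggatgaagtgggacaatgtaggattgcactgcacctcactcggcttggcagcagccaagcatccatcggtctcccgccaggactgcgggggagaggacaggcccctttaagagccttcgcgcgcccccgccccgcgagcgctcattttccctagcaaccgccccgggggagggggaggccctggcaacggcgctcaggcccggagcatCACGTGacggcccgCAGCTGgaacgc
Cbx7: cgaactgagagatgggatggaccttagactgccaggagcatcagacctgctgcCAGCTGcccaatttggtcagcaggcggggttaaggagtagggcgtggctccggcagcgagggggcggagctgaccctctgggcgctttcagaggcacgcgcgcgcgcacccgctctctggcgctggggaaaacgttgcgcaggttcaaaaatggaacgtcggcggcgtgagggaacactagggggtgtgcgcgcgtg
They lie at chr11:119040914-119041163, chr15:79834334-79834583 and chr15:79932647-79932896, all on the minus strand, and capitals again mark CANNTG. The GENCODE gene model of Cbx7 extends further upstream, to chr15:79971119, and starts there were not looked at. The motif occurred 1 time in the window of Cbx8, which rose, 2 times in that of Cbx6 and 1 time in that of Cbx7, which fell, so that its presence did not follow the direction of change.

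**Figure D4:**
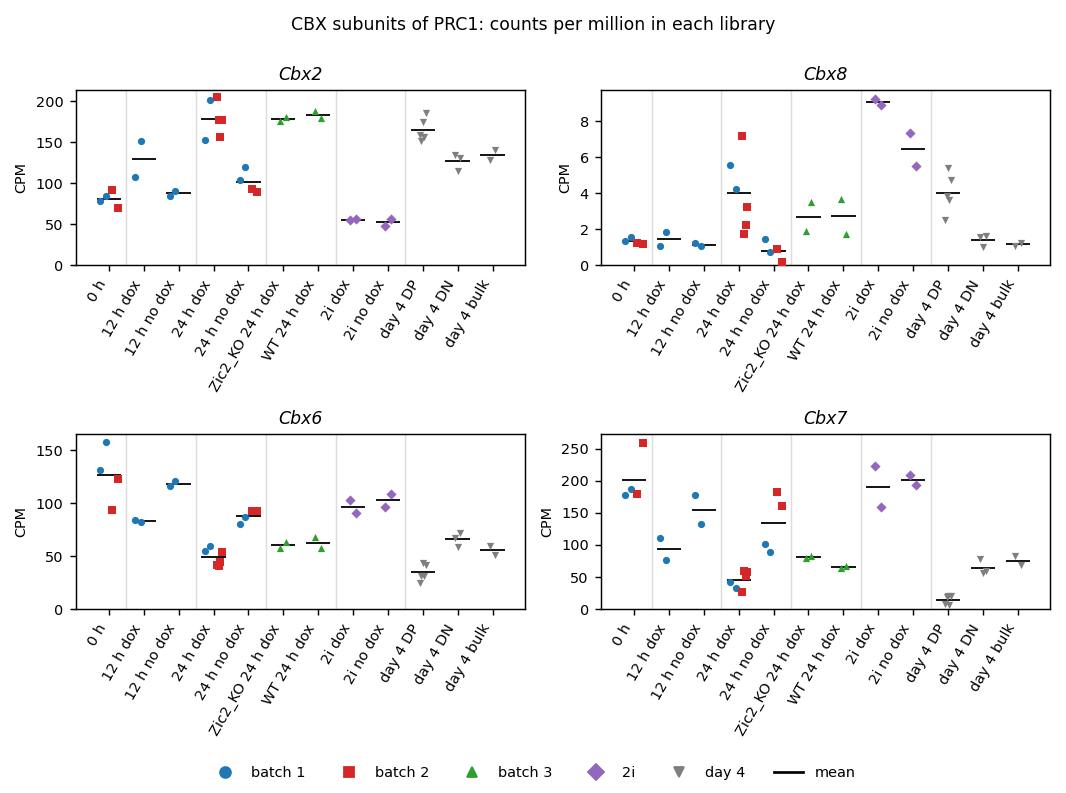
CPM of the 4 CBX genes of PRC1 in each of the 36 libraries by group (points, coloured and shaped by batch or experiment; bars, means). Cbx2 is high and Cbx6 and Cbx7 are low in the 24 h dox groups of all batches and in DP cells, and Cbx7 is highest at 0 h and in 2i.

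The catalytic and PCGF subunits of PRC1 were steadier. Of 6 genes, Pcgf6, of a variant PRC1 that lacks the CBX subunits listed here, fell with dox to 58.8 ± 8.55 CPM, against 76.0 ± 9.75 CPM (log2 fold change -0.39, adjusted p = 0.00182). The other 5 (Ring1, Rnf2, Bmi1, Pcgf1 and Pcgf2) were not called. Rnf2 averaged 152 ± 24.4 CPM with dox and 145 ± 10.2 CPM without, and Ring1, the less abundant E3 ligase, 19.4 ± 5.39 CPM and 16.2 ± 4.08 CPM. Pcgf2 was lower in every dox library than in every no-dox library of its batch, at 89.4 ± 11.3 CPM with dox and 102 ± 9.18 CPM without, but did not pass the test (adjusted p = 0.088).

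Batch 3 gave 4 further libraries at 24 h of dox, with none without dox to set them against. Bcl11b had 1.16 to 2.63 CPM, Bcl11a 8.64 to 14.9 CPM, Cbx6 57.3 to 67.9 CPM and Cbx2 175 to 188 CPM in these 4 libraries. Cbx7 stood at 79.7 and 82.0 CPM in the libraries labelled Zic2_KO and 63.8 and 67.1 CPM in WT. Between the libraries labelled Zic2_KO and WT, 0 of 43 members were called, as were 0% of all genes, by edgeR and by DESeq2 for the members. At an unadjusted p under 0.05 there was 1 member, beside 390 of 16518 genes, and Zic2 itself was not shown to differ.

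Without dox, differentiation from 0 h to 24 h changed 8 of 43 members, 3 upward and 5 downward, where 25.1% of all genes were called. Higher at 24 h were Bmi1 (log2 fold change 0.81 ± 0.18), Bcl7a (0.54 ± 0.11) and Smarce1 (0.44 ± 0.11), and lower were Phf19 (-1.09 ± 0.26), Cbx7 (-0.71 ± 0.20), Cbx6 (-0.57 ± 0.13), Smarcc1 (-0.35 ± 0.12) and Actl6a (-0.26 ± 0.07). Of these 8 calls, 0 passed under every alternative run. The edgeR call of Smarcc1 was lost in each batch alone, with no batch term (adjusted p = 0.212) and without several single libraries (0.0723 to 0.139). That of Actl6a was lost in each batch alone, with library totals (adjusted p = 0.0815) and with no low-count filter (0.202). Cbx7 had 102 and 88.8 CPM at 24 h in batch 1, against 178 and 187 CPM at 0 h, and 182 and 161 CPM at 24 h in batch 2, against 180 and 260 CPM at 0 h. In batch 1 the groups were apart and in batch 2 they overlapped, and the joint call did not pass without batch 1 library 1 (adjusted p = 0.0637) or 2 (adjusted p = 0.0507) of the 24 h group. Phf19 had 1.98, 1.78, 3.63 and 3.32 CPM at 24 h, against 3.86, 6.02, 5.85 and 5.48 CPM at 0 h, with every 24 h library below every 0 h library. Batch 2 alone called 0 of 43 members by edgeR, with 6 at an unadjusted p under 0.05 and 4.33% of all genes called (658 of 15188). Scaling by library totals changed the split of called members to 7 higher and 4 lower. Time without dox and dox at 24 h share the 24 h no-dox libraries, so that their values are given side by side only. From 0 h to 12 h no member was called (0 of 43, with 1 at an unadjusted p under 0.05 and 0.317% of all genes called, 0.274% higher and 0.043% lower).

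In 2i, where Mesp1 was at 85.4 and 119 CPM with dox and 1.09 and 0.613 CPM without, no subunit gene was called by the unpaired tests. That holds for 0 of 42 members tested by edgeR and 0 by DESeq2, with 0 at an unadjusted p under 0.05. In the same edgeR fit 0% of all genes were called, so that Mesp1 itself was not, and 385 of 18534 passed the unadjusted threshold. Same-numbered dox and no-dox libraries deviated together here (correlation 0.765). With the replicate as a block, edgeR called 3.42% of all genes (633 of 18534). The unpaired fit therefore does not show that dox had no effect in 2i. The dox effect itself differed between 2i and 24 h of differentiation for 6 of 43 members in a joint fit, in which 7.04% of all genes were called, 3.77% higher and 3.27% lower. Smarcd2 had 72.0 and 81.1 CPM with dox in 2i, against 70.0 and 87.5 CPM without, and its effect was lower in 2i by 1.27 ± 0.17 (log2, adjusted p = 0.000107). Smarcd3 had 14.2 and 13.2 CPM, against 10.8 and 11.2 CPM (difference of effects -2.03 ± 0.43, adjusted p = 0.00516). For Cbx7, with 223 and 158 CPM, against 209 and 193 CPM, the difference of effects was 1.46 ± 0.34 (adjusted p = 0.0107), which did not pass without 2i dox library 1 (adjusted p = 0.0832) or no-dox library 2 (adjusted p = 0.0646). Bcl11b was already low in 2i, at 0.364 and 1.62 CPM with dox and 0.655 and 0.664 CPM without, and its difference of effects was 3.97 ± 0.61 (adjusted p = 0.000423). The remaining calls, Cbx2 (-0.82, adjusted p = 0.0409) and Ezh2 (-0.41, adjusted p = 0.0291), were each lost without any of the 4 libraries in 2i.

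Several subunit levels in the 2i libraries also stood apart from those in the other libraries, although medium, differentiation and experiment cannot be told apart in them and no test was made. Of 26 BAF genes with counts in every group, 15 had their lowest group mean in a 2i group and 0 their highest. Of the 17 Polycomb genes, 3 had their lowest mean there and 9 their highest. Such counts were not made over all genes, so that they show nothing particular to the subunits. Smarce1 had 51.2, 38.5, 46.4 and 36.9 CPM in 2i and 122 to 322 CPM in all other libraries, and Bcl11a had 0 to 0.0728 CPM in 2i and 3.96 to 52.7 CPM elsewhere. Suz12, Mtf2 and Eed ran the other way, with 419 to 549 CPM, 623 to 849 CPM and 196 to 248 CPM in 2i, against at most 202, 265 and 117 CPM elsewhere. The methyltransferase gene Ezh2 had 142 to 165 CPM in 2i, with DN cells nearest at 159 to 171 CPM.

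On day 4, DP cells, a sort used for cardiac mesoderm, differed from DN cells in 10 of 43 members, 6 higher and 4 lower, over replicates 3 to 5 of each. Among all genes 25.6% were called, 9.41% higher and 16.2% lower, and the members' share was 23.3%. Higher in DP were Smarcd3, Cbx8, Dpf1, Cbx2, Ezh2 and Smarca4, and lower were Cbx7, Jarid2, Cbx6 and Ezh1. Same-numbered DP and DN libraries deviated together, and with the replicate as a block 19 members were called, 15 higher and 4 lower, a share of 44.2% where the same fit called 43% of all genes. The 9 added were Dpf3 (log2 fold change 1.49), Smarca2 (0.76) and 7 with values from 0.18 to 0.28, namely Ss18, Smarcc1, Brd7, Smarcc2, Smarcd2, Bcl7c and Mtf2. Without replicate 4 of both sorts, an alternative chosen after seeing the data, 14 members and 32.4% of all genes were called. Without DN library 3 or DN library 5, 6 members were called, with 17.6% and 16.9% of all genes. Proliferation genes were higher in DP at the same time: 5 of 7 passed the test (among them Cdk1, Mki67, Top2a and Pcna), and their summed level was 2490 to 3164 CPM in DP and 1685 to 2212 CPM in DN, with none at 0. Markers of other cell types differed too. All 4 endoderm markers were lower in DP, with sums of 16.8 to 57.7 CPM in DP and 765 to 879 CPM in DN, as were all 5 primed epiblast markers, with 269.9 to 414 CPM in DP and 1348 to 1821 CPM in DN. Of 7 naive pluripotency genes tested, 2 were higher and 5 lower (238 to 455 CPM in DP and 81 to 143 CPM in DN), and 6 of 8 mesoderm markers were higher (1490 to 2017 CPM in DP and 54.1 to 74.4 CPM in DN). The part of these differences in the subunit changes was not tested.

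The CBX genes gave the same directions as under dox. Cbx7 had 19.7, 6.13 and 19.8 CPM in DP libraries 3 to 5, against 77.7, 56.5 and 59.2 CPM in DN (log2 fold change -2.06 ± 0.39, adjusted p = 0.00876). Cbx6 had 43.8, 31.4 and 42.1 CPM in DP, against 66.8, 59.0 and 71.8 CPM in DN (-0.72 ± 0.14, adjusted p = 0.00828). In neither gene did the sorts overlap. Cbx8 had 5.38, 3.59 and 4.70 CPM in DP, against 1.54, 1.03 and 1.61 CPM in DN (1.73 ± 0.27, adjusted p = 0.00334), and Cbx2 174, 156 and 185 CPM, against 134, 114 and 131 CPM (0.47 ± 0.10, adjusted p = 0.0103). The per-kilobase ratio of Cbx2 to Cbx7 was 19.5 in DP and 3.02 in DN. Cbx8 stood at 0.485, 1.04 and 0.422 of the level of Cbx7 in DP libraries 3 to 5, against 0.0358, 0.0334 and 0.0492 in DN, and passed it in DP library 4 alone.

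PRC2 genes and the ATPase Smarca4 also differed between the sorts. Jarid2 had 154, 169 and 170 CPM in DP libraries 3 to 5, against 319, 363 and 402 CPM in DN (-1.11 ± 0.12, adjusted p = 0.000625). Ezh1 had 32.2, 26.8 and 34.3 CPM in DP, against 53.2, 41.4 and 55.7 CPM in DN (-0.66 ± 0.14, adjusted p = 0.0127), and Ezh2 202, 215 and 203 CPM, against 159, 171 and 162 CPM (0.36 ± 0.08, adjusted p = 0.0158). Both calls were lost without DN library 3 or 5 (adjusted p = 0.0513 to 0.065). Smarca4 had 539, 569 and 530 CPM in DP, against 424, 472 and 431 CPM in DN (0.33, adjusted p = 0.0258), a call lost without any of DP libraries 3, 4 or 5 or DN libraries 3 or 5 (adjusted p = 0.0591 to 0.101).

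Smarcd3 and the DPF genes were more variable between DP libraries. Smarcd3 had 67.0, 18.7 and 80.7 CPM in DP libraries 3 to 5, against 19.99, 12.3 and 16.3 CPM in DN. DP library 4 lay within the DN range, and the log2 fold change of 1.81 ± 0.50 (adjusted p = 0.0353) lost its call without any DN library or without DP library 3 or 5 (adjusted p = 0.0824 to 0.115). Its overlapping gene Chpf2 had 58.0, 22.6 and 64.9 CPM in DP, against 33.5, 22.7 and 27.5 CPM in DN, high and low in the same DP libraries, and did not pass the test (adjusted p = 0.147). Dpf1 had 17.4, 17.9 and 13.6 CPM in DP, against 7.03, 9.41 and 5.91 CPM in DN (1.16 ± 0.21, adjusted p = 0.00654), which is opposite in direction to its fall with dox at 24 h. Dpf3 had 12.8, 20.9 and 10.7 CPM in DP, against 2.71, 9.73 and 4.53 CPM in DN, with each DP library above all DN libraries, and was called only with the replicate block (adjusted p = 0.00296).

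The 5 DP libraries did not form a single group. Over all genes the widest gap lay between libraries 1 and 2 and libraries 3 to 5. Each pair across that gap had a chi-square per gene, relative to counting noise, of 84.25 to 105.8. Within the sets it was 22.28 (libraries 1 and 2) and 6.466 to 23.33 (libraries 3 to 5). The members Cbx7, Smarcd3 and Bcl11a divided the libraries in another way. Libraries 1 and 4 had Cbx7 at 7.59 and 6.13 CPM, Smarcd3 at 27.6 and 18.7 CPM and Bcl11a at 20.1 and 25.6 CPM. Libraries 2, 3 and 5 had Cbx7 at 18.8, 19.7 and 19.8 CPM, Smarcd3 at 70.9, 67.0 and 80.7 CPM and Bcl11a at 7.55, 10.0 and 8.41 CPM. Smarce1 followed the wider gap, with 322 and 309 CPM in libraries 1 and 2, against 153, 166 and 151 CPM in libraries 3 to 5. Bcl11a was also uneven in DN, at 11.7, 19.1 and 7.68 CPM, with the highest value in library 4 of both sorts, and it was not called between the sorts.

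Against bulk embryoid bodies, DP libraries 1 and 2 differed in 21 of 43 members, 15 higher and 6 lower, where 51.7% of all genes were called, 22.9% higher and 28.8% lower. The largest differences were in Dpf3 (13.7 and 9.81 CPM in DP, against 1.37 and 2.05 CPM in bulk; log2 fold change 2.94 ± 0.29), Smarca2 (13.1 and 18.8 CPM, against 3.83 and 3.20 CPM; 2.34 ± 0.22), Cbx7 (7.59 and 18.8 CPM, against 82.3 and 68.8 CPM; -2.36 ± 0.42) and Smarcd3 (27.6 and 70.9 CPM, against 11.9 and 13.0 CPM; 2.14 ± 0.46). Smarce1 had 322 and 309 CPM in DP and 122 and 128 CPM in bulk (1.5 ± 0.08), but with DP libraries 3 to 5 in place of 1 and 2 it gave 0.45. Higher as well were Cbx8 (1.62), Bmi1 (0.52), Ss18 (0.46), Pbrm1 (0.44), Phf10 (0.43), Ezh2 (0.43) and Rnf2 (0.42), with Smarcc2, Brd7, Cbx2 and Brd9 between 0.35 and 0.41, and lower were Cbx6 (-0.82), Bcl11b (-0.80), Jarid2 (-0.75), Ezh1 (-0.44) and Ring1 (-0.40). Scaling by library totals moved the median of all genes to -0.18 and changed the split of the members to 9 higher and 8 lower. With DP libraries 3 to 5 in place of 1 and 2, the calls of Bmi1 (0.15), Brd7 (0.10), Brd9 (0.11), Ezh2 (0.12), Phf10 (0.20), Ss18 (0.02), Cbx6 (-0.38) and Ring1 (-0.02) did not pass (adjusted p = 0.0562 to 0.896), and 39.3% of all genes were called. Without bulk library 1, 5 members and 26.3% of all genes were called, and without bulk library 2, 6 members and 26.9%. Without DP library 1, 25 members and 59.3% of all genes were called, and without DP library 2, 27 members and 55.6%.

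Across comparisons that share no library, called members recurred. Of the 20 members called under dox at 24 h, 8 (40%) were also called between DP and DN, where they made up 80% of the 10 called, and 7 of the 8 had the same direction. Over all genes these shares were 46.4% and 54.4%, with 88.7% in the same direction. Dox at 24 h and DP against bulk shared 13 called members, 65% and 61.9% of the lists, and all 13 had the same direction, where all genes gave 60.8% and 36.3% with 92% in the same direction. The member called in opposite directions was Dpf1, lower with dox at 24 h and higher in DP than in DN cells. Shared by dox at 24 h, DP against DN and DP against bulk were higher Smarcd3, Cbx2 and Cbx8 and lower Ezh1, Jarid2, Cbx6 and Cbx7. Several of these calls depended on the setting. With no low-count filter, edgeR did not call Smarcd3 or Cbx7 against bulk (adjusted p = 0.126 and 0.0757) or against DN (0.168 and 0.0657). Against bulk, Cbx2 was lost with library totals (adjusted p = 0.0762) and Cbx6 with DP libraries 3 to 5 (0.0944). Limits of Smarcd3 and Ezh1 between the sorts are given above.

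**Figure D5:**
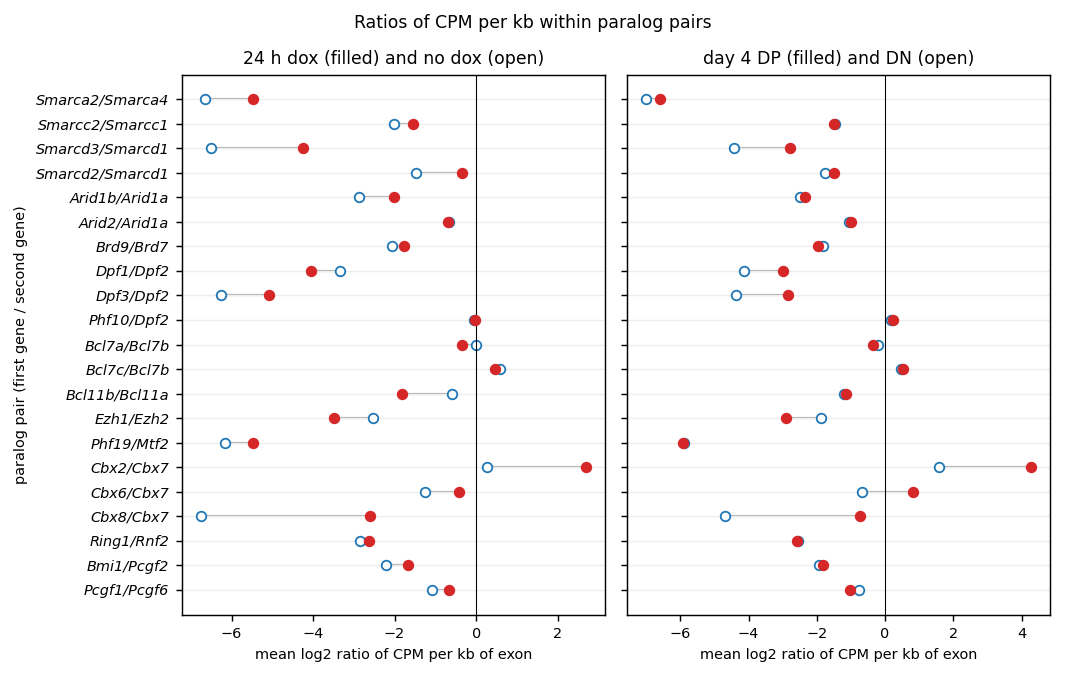
Mean log2 ratio of CPM per kilobase of exon between the members of 21 paralog pairs (rows), for 24 h dox and no dox (left) and day 4 DP and DN replicates 3 to 5 (right); filled points are dox or DP, open points no dox or DN. The 3 pairs with Cbx7 move to the right in both panels, as do Smarcd3/Smarcd1 and Dpf3/Dpf2, and Ezh1/Ezh2 moves to the left in both.

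A paralog that was the less abundant per kilobase in one condition and the more abundant in the other was seen among the CBX genes, while Bcl7a/Bcl7b and Phf10/Dpf2 lay near 1 with libraries on either side of it. Cbx6 stood at 1.77 of the level of Cbx7 in DP cells, against 0.629 in DN, with each of DP libraries 3 to 5 above 1 and each DN library below it. Cbx2 was above Cbx7 with dox and below it without dox in batch 2, while in batch 1 it was above it in both conditions. Bcl11b was below Bcl11a in every library of these groups, at a mean ratio of 0.283 with dox and 0.668 without. By their mean ratios the more abundant paralog was the same with and without dox, and in DP and DN, at 8 further positions (Smarca4, Smarcc1, Smarcd1, Arid1a, Ezh2, Mtf2, Rnf2 and Pcgf2), although Smarcd2 reached 1.03 of Smarcd1 in batch 1 dox library 1. The pairs Arid2/Arid1a, Phf10/Dpf2 and Bcl7c/Bcl7b shifted by at most 0.1 on the log2 scale with dox, less than their mean SDs within groups (0.14 to 0.21).

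Of 50 other chromatin genes tested from 5 lists, 6 rose and 10 fell with dox at 24 h, a share of 32% beside the 30% of all genes. They included further PRC1 subunits: Pcgf5 rose (log2 fold change 1.47 ± 0.17, adjusted p = 3.68e-06), while Phc1, whose product holds canonical PRC1 complexes together, fell (-1.57 ± 0.14, adjusted p = 2.55e-07) with Bcor (-1.09), a partner of variant PRC1. Between DP and DN cells 8 of 49 were higher and 4 lower, among them Kdm6b (0.93), which encodes a demethylase of the Polycomb mark, on the higher side and Phc1 (-1.37) and Scml2 (-1.05) on the lower.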

How the data were processed

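RNA-seq counts per Ensembl gene were deposited by the authors for 36 mouse libraries; per the submitters' processing notes, reads were handled with Trimmomatic, STAR, HTSeq and DESeq2 on mm10, with versions, strand setting and annotation not given in the sources used here. Gene symbols came from GENCODE M21. The rows that name no gene were left out of totals; reads in no feature came to 3.81% to 11.7% of the gene total and ambiguous reads to 4.22% to 5.64%. Library totals set what 1 count stands for. Count tests used edgeR 4.0.16 (robust quasi-likelihood F test, filterByExpr, TMM, Benjamini-Hochberg adjustment over all genes tested) in R 4.3.3 with limma 3.58.1. Batches 1 and 2 were fitted together (18 libraries, condition and batch), and the other experiments each alone; differences of effects came from the same models, that of 2i from a joint fit. Intervals given as ± are SE for log2 fold changes and SD for levels. Paralog ratios used CPM per kilobase of merged exons with 0.5 added to counts and are descriptive. Alternatives were RLE scaling, library totals, no low-count filter, DESeq2 1.42.0, the replicate block, single batches, no batch term and leaving out each library. Same-numbered DP and DN libraries deviated together (correlations 0.52, 0.602 and 0.619), so these numbers were taken to pair the sorts. In batch 1, dox and no-dox libraries of the same number also deviated together (correlations 0.884 at 24 h and 0.705 at 12 h). At 24 h in batch 2 they did not (-0.0176 and -0.0619). The main tests carried no replicate term and so left any such pairing out, and the replicate block was an alternative only. The fits were tested on simulated data. No 2 libraries of a group differed by as little as sampling noise. Every member was accounted for; members called were named, with values per library for those with at least a 2-fold change, their paralogs and the catalytic subunits, and of other lists the 4 with the largest changes. One gene of the other lists is not reported here. The members and lists were chosen with earlier results of these data known.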

Additional observations from a re-analysis of the deposited data

Results flagged for a closer look

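A library far from the rest of its group was looked for in 88 tests, 44 over the 4 dox libraries of batch 2 at 24 h and 44 over the 5 DP libraries, and chance places about 1 in 20 so. All 5 cases found were among the 44 of batch 2 and none among the 44 of DP. Smarca2 had 27.29 CPM in library 1 and 12.4 to 13.4 CPM in the others, and Bcl11a had 3.961 CPM in library 1 and 10.8 to 12.1 CPM in the others. The same library had the highest Mesp1 level of the 4 (544 CPM), with 42.9, 95.2 and 209 CPM in the others; the part of that level in these values was not tested. Actl6b had 0.07335 CPM in library 1, which is 1 count, and 0 in the others. Arid1a had 599.4 CPM in library 2 and 473 to 485 CPM in the others, and Dpf2 had 146.9 CPM in library 4 and 137 to 138 CPM in the others.

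For Bcl11b the dox effect at 24 h minus that at 12 h was -2.767 on the log2 scale by an interaction term. The dox effect in 2i minus that at 24 h of differentiation also passed an interaction test for 6 members: -1.268 for Smarcd2, -2.029 for Smarcd3, -0.8153 for Cbx2, -0.41 for Ezh2, 1.459 for Cbx7 and 3.971 for Bcl11b.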

How the results depend on the processing

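No direction of a called member reversed under any alternative run. For dox at 24 h, 8 of the 20 called members passed under every alternative (Smarcd2, Bcl11a, Bcl11b, Ezh1, Jarid2, Cbx6, Cbx7 and Cbx8); batch 1 alone called 12 members and 6 other chromatin genes, and without the batch term 9 other chromatin genes were called. At 12 h, 3 members were called with no low-count filter, 2 with the replicate block and 2 in batch 1 alone. For 24 h against 0 h without dox, DESeq2 called 15, the replicate block 13, the crossed replicate block (chosen after seeing the data) 13, batch 2 alone 0 and no batch term 5, and of other chromatin genes batch 2 alone called 2 and no batch term 6. For the 24 h minus 12 h effect the counts were 6 with no filter, 3 with DESeq2 and 3 with the replicate block, and for batch 2 minus batch 1, where 0 of 43 members were called by edgeR (5 at an unadjusted p under 0.05), they were 1, 1 and 1. With the replicate block 19 members were called between DP and DN and 10 for the 2i difference. Leaving out single libraries gave 18 to 21 members for dox at 24 h, 1 to 2 at 12 h and 6 to 10 for time to 24 h. It gave 0 to 0 for time to 12 h, Zic2_KO and 2i. For the 24 h minus 12 h effect it gave 0 to 2, and for batch 2 minus batch 1 it gave 0 to 1. The ranges were 6 to 11 for DP against DN, 5 to 27 for DP against bulk and 3 to 7 for the 2i difference. For other chromatin genes, leaving out single libraries gave 12 to 18, 9 to 15 and 5 to 11 for dox at 24 h, time to 24 h and DP against DN. Leaving out replicate 4 of both sorts together, chosen after seeing the data, gave 14 members for DP against DN. The causes were not tested. The crossed replicate block called 20 members for DP against bulk. The depth limits the rarest genes, Actl6b above all.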
